A study of Homo sapiens with 12 samples.

Results

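Interferon regulatory factors (IRFs), signal transducers and activators of transcription (STATs) and the interferon receptors form one signalling chain, and 9 of its genes were followed here through RNA-seq of JJN3, a human multiple myeloma cell line. They are the IRF genes IRF1, IRF2, IRF3, IRF7, IRF8 and IRF9, the STAT gene STAT2, and the receptor genes IFNAR1 and IFNGR1. They were taken by symbol from a table of 59276 gene symbols, and all 9 had a row. Each of the 4 groups held 3 replicates, 12 samples in all. JJN3 cells were treated with DMSO, the vehicle, or with 10 µM MS023, an inhibitor of the type I protein arginine methyltransferases, for 3 days. JJN3 cells that stably express Cas9 carried a doxycycline-inducible guide RNA, either a control guide (isgCtrl) or a guide against PRMT1 (iPRMT1), and both were kept in doxycycline for 3 days. The iPRMT1 cells are a selected line with 1 guide, and the values do not give the share of cells that were edited.

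Type I interferons signal through a receptor made of the chains IFNAR1 and IFNAR2, and interferon gamma signals through IFNGR1 and IFNGR2. Janus kinases bound to these chains phosphorylate STAT factors, and STAT2 and IRF9 are subunits of ISGF3, the complex that switches on genes with an interferon-stimulated response element (ISRE), while STAT dimers bind the gamma-activated site (GAS). IRF3 and IRF7 turn on interferon genes when nucleic acids are sensed, IRF1 activates and IRF2 represses genes with such elements, and IRF8 acts in B cells and myeloid cells with partner factors.

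Values were deposited as log2(TPM+1), where TPM is a transcript's level per length, scaled to the same total in every sample, so that genes can be set side by side. Fold changes below are differences of log2(TPM+1), which makes the changes of low genes smaller. A gene was called changed at an adjusted p under 0.05 in limma, by the Benjamini-Hochberg (BH) procedure, together with a log2 fold change beyond 0.48 in either direction. Tested genes averaged more than 1 on this log2 scale in at least 1 group, and SE is the standard error of the log2 fold change. Between 20988 and 22241 genes per sample were above 0, and Pearson's r between replicates was 0.992 to 0.995 across genes. Read depth is unknown from TPM. PRMT1 mRNA was 849 to 867 TPM in isgCtrl and 301 to 309 TPM in iPRMT1 cells, and 634 to 669.6 TPM in DMSO and 656 to 700.0 TPM in MS023. The 10 plasma cell markers examined were above 0 in every sample, with a summed level of 5545 to 5795 TPM in DMSO, 11772 to 12132 in MS023, 2766 to 2836 in isgCtrl and 2980 to 3168 in iPRMT1. JCHAIN made up most of these sums, and the other 9 markers summed to 838 to 884 TPM in DMSO, 1383 to 1432 in MS023, 818 to 843 in isgCtrl and 804 to 812 in iPRMT1. With MS023 6 of the 10 markers were called higher and 1 lower, and in isgCtrl against DMSO 1 higher and 4 lower. The lowest log2 fold change of a marker in isgCtrl against DMSO was -5.15. In iPRMT1 against isgCtrl 1 of the 10 was too low to be tested, so not all were well expressed in the guide-bearing cells. Of all genes tested, 11.6% were called higher and 19.3% lower with MS023, and 7.23% higher and 6.7% lower in isgCtrl. Markers of other blood cells summed to 1.61 to 7.07 TPM, 5 to 10 of the 15 were at 0 in a sample, and CD3G and CLEC4C were at 0 in all.

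The sequences around the elements named above are shown for the genes on which the results turn. RefSeq promoter windows on GRCh38.p14, from 250 bases before to 50 bases after a start site, were searched on both strands for the ISRE core GAAANNGAAA (TTTCNNTTTC on the other strand) and for the palindromic GAS TTCNNNGAA. RefSeq windows were matched by symbol for 6 of the 9 genes (IRF1, IRF8, IRF9, STAT2, IFNAR1 and IFNGR1). None of their 9 windows held the ISRE core, so the motifs did not overlap there, and those of IRF1 and IRF9 held a GAS, with its first base at -124 and -63 from the start site. The IRF8 windows begin at chr16:85902580 and chr16:85902765 on the plus strand, downstream of the annotated gene start at 85899116. The promoter at that start was not searched. The IRF1 window too lies downstream of the annotated gene start, at 132508719 on the minus strand, where no promoter was searched. Over all 35116 promoters of the table, 3.57% held the ISRE core and 7.66% the GAS. The 250 bases before the start sites of IRF1 (chr5:132490774-132491023, minus strand) and IRF9 (chr14:24161015-24161264, plus strand) are printed with the GAS in capitals.
IRF1: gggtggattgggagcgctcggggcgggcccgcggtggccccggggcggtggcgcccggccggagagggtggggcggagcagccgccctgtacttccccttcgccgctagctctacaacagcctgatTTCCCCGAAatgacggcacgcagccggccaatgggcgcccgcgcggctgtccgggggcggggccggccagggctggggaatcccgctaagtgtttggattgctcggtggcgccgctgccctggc
IRF9: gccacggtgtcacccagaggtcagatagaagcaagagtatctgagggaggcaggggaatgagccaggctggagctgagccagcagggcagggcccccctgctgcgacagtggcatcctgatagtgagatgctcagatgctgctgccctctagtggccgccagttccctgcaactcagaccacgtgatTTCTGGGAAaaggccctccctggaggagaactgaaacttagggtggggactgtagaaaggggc

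For some target genes of these factors that are described further on, 30 bases around an ISRE core are printed, with the core in capitals. For OASL, UBE2L6, APOL3 and APOL1, also described there, no promoter window with the core was found. The genes printed are given next. These are ISG20, an exonuclease active on viral RNA (chr15:88638937-88638966, plus strand), IFI6, a mitochondrial and ER protein (chr1:27672329-27672358, minus strand), MX1, an antiviral GTPase (chr21:41420559-41420588, plus strand), and the chemokines CXCL9 (chr4:76007661-76007690, minus strand) and CXCL10 (chr4:76023699-76023728, minus strand).
ISG20: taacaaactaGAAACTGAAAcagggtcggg
IFI6: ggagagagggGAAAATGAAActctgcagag
MX1: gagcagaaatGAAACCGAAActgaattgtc
CXCL9: ccatttatgtGAAATGGAAAtaaaaacatg
CXCL10: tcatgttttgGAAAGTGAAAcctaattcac

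Before any comparison, the 9 genes spanned a wide range of levels. IRF3 had the highest level in every group, with means of 94.8 to 119 TPM, and IRF8 the lowest, with means of 0.169 to 6.16 TPM. In DMSO the order was IRF3, IRF1, IRF2, IFNAR1, IRF9, IFNGR1, IRF7, STAT2 and IRF8. The samples of IRF1 and IRF2, of IFNAR1 and IRF9, and of IRF7 and STAT2 overlapped in that order. In isgCtrl and iPRMT1 cells IRF1 stood behind IRF2 and IFNAR1, and its samples overlapped those of IRF9. With MS023 the order was IRF3, IRF1, IRF2, IRF9, IRF7, IFNAR1, IFNGR1, STAT2 and IRF8, where only IRF7 and IFNAR1 overlapped among neighbours.

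MS023 raised the mRNA of 5 of the 9 genes, IRF1, IRF7, IRF8, IRF9 and STAT2, and none was called lower. Of the 12903 genes tested, 30.9% were called, 11.6% higher and 19.3% lower (1500 and 2486 genes, and 1995 and 1885 under median-ratio scaling). An adjusted p under 0.05, whatever the size, was found for 8 of the 9 and for 48.8% of all genes. The median log2 fold change of the 9 was 0.60, against -0.11 over all genes tested. In all 9 the MS023 and DMSO samples did not overlap, 8 higher and 1 lower, where 59.5% of all genes did not overlap, 23.2% higher and 36.3% lower. The 2-sided exact permutation p was 0.1 for each of the 9, the smallest that 3 samples against 3 allow.

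The inducible partner of IRF3 came first by log2 fold change. IRF7, on chromosome 11 (612553 to 615983, minus strand, GENCODE v44 on GRCh38), codes for the factor that amplifies type I interferon production. It was at 5.22, 5.46 and 6.33 TPM in DMSO and at 17.3, 19.4 and 24.0 TPM in MS023, 5.67 ± 0.583 and 20.2 ± 3.41 TPM (SD, n = 3 each). The lowest MS023 sample lay far above the highest DMSO sample. Its log2 fold change was 1.66 (SE 0.13, limma, BH-adjusted p = 3.2e-04), a ratio of mean TPM of 3.57. IRF3 itself (chromosome 19, 49659569 to 49665875, minus strand), the constitutive factor, was at 91.5, 90.5 and 103 TPM in DMSO and at 127, 109 and 119.9 TPM in MS023. The groups did not overlap, and the log2 difference of 0.32 (SE 0.09, limma, BH-adjusted p = 0.026) was under the fold threshold. Without 1 of 4 of the 6 libraries (DMSO replicate 1 or 2, MS023 replicate 1 or 3) the adjusted p in limma was over 0.05, up to 0.080. IRF3 overlaps BCL2L12 on the other strand, which was at a mean of 126 TPM in DMSO and 77.4 TPM in MS023. Whether strand was used in quantification is not given in the sources used here.

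IRF8 rose with MS023 from a low start, at a ratio of mean TPM of 3.59, and of 3.04 to 4.90 with 1 library left out. IRF8 (chromosome 16, 85899116 to 85922606, plus strand) is a factor of B cell and myeloid development that plasma cells express little of. It was at 1.41, 2.64 and 1.10 TPM in DMSO and at 5.58, 5.51 and 7.38 TPM in MS023. Every MS023 sample was more than any DMSO sample, though the DMSO samples spread widely for their level. Its log2 fold change was 1.43 (SE 0.22, limma, BH-adjusted p = 0.0033). In isgCtrl the values were 0.366, 0.0497 and 0.0922 TPM, and in iPRMT1 0.423, 0.0867 and 0.136 TPM. Both guide-bearing groups were thus below 1 TPM in every sample.

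IRF1 and IRF2, the activator and the repressor that share a binding element, parted in size. IRF1 (chromosome 5, 132440440 to 132508719, minus strand) was at 41.4, 38.4 and 34.2 TPM in DMSO and at 64.9, 72.1 and 79.8 TPM in MS023, a log2 fold change of 0.91 (SE 0.11, limma, BH-adjusted p = 0.0012). The groups were well apart. In GENCODE v44 the antisense gene IRF1-AS1 overlaps this span of IRF1, and the span may differ in the GENCODE V35 used by the authors. The mean of IRF1-AS1 was 6.38 TPM in DMSO and 6.56 TPM in MS023. IRF2 (chromosome 4, 184385702 to 184474558, minus strand) was at 36.6, 37.4 and 34.3 TPM in DMSO and at 46.7, 46.9 and 45.3 TPM in MS023. The groups did not overlap, and the log2 difference was 0.35 (SE 0.06, limma, BH-adjusted p = 0.0057), under the fold threshold.

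The ratio of IRF1 to IRF2 within a sample does not depend on scaling between samples. It was 1.13, 1.03 and 0.996 in DMSO and 1.39, 1.54 and 1.76 in MS023. The MS023 ratios were all higher, by 0.57 on the log2 scale (2-sided exact permutation test, p = 0.1, and 0.3 after Benjamini-Hochberg adjustment over the 6 ratio tests). In isgCtrl the ratio was 0.489, 0.460 and 0.519, and in iPRMT1 0.473, 0.615 and 0.410. Those groups overlapped and differed by 0.01 on the log2 scale (2-sided exact permutation test, p = 1).

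The DNA-binding and partner subunits of ISGF3 rose with MS023. IRF9 (chromosome 14, 24161234 to 24168043, plus strand), which gives ISGF3 its binding specificity, was at 26.3, 18.0 and 22.1 TPM in DMSO and at 38.2, 36.7 and 39.6 TPM in MS023. The MS023 samples were close together and above all DMSO samples. Its log2 fold change was 0.77 (SE 0.14, limma, BH-adjusted p = 0.0054). A gene model annotated as protein-coding overlaps IRF9 on the same strand, so the reads assigned to IRF9 are uncertain to that extent. STAT2 (chromosome 12, 56341597 to 56360203, minus strand), the subunit with the transactivation domain, was at 4.99, 5.04 and 6.50 TPM in DMSO and at 8.22, 9.63 and 8.71 TPM in MS023. Here too the groups stood apart, with a log2 fold change of 0.60 (SE 0.11, limma, BH-adjusted p = 0.0065). The ratio of STAT2 to IRF9 within a sample was 0.189 to 0.295 in DMSO and 0.215 to 0.263 in MS023, overlapping ranges (2-sided exact permutation test, p = 0.8, and 0.96 adjusted over the 6 ratio tests).

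The receptor chains IFNAR1 and IFNGR1 were not called in either direction. IFNAR1 (chromosome 21, 33324387 to 33359864, plus strand) was at 25.7, 25.9 and 23.6 TPM in DMSO and at 19.5, 18.4 and 20.4 TPM in MS023. All MS023 samples were lower, and the log2 difference of -0.35 (SE 0.07, limma, BH-adjusted p = 0.0094) was under the fold threshold. IFNGR1 (chromosome 6, 137197483 to 137219449, minus strand) was at 10.8, 10.9 and 10.7 TPM in DMSO and at 11.0, 11.2 and 12.2 TPM in MS023. The groups lay next to each other without overlap, and the log2 difference was 0.08 (95% confidence interval -0.08 to 0.24, limma, BH-adjusted p = 0.354). Under median-ratio scaling, which moved the median of all genes from -0.11 to -0.0040, it was 0.19 (limma, BH-adjusted p = 0.042). The ratio of IFNAR1 to IFNGR1 was 2.39, 2.37 and 2.21 in DMSO and 1.77, 1.64 and 1.68 in MS023, without overlap (2-sided exact permutation test, p = 0.1, and 0.3 adjusted over the 6 ratio tests).

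In iPRMT1 cells none of the 8 genes tested was called against isgCtrl (limma, BH adjustment), where 0.781% of the 12285 genes tested were called (51 higher and 45 lower, and 65 and 27 under median-ratio scaling). An unadjusted p under 0.05 was found for 3 of the 8, and for 18.6% of all genes. The median log2 difference of the 8 was 0.09, against -0.04 over all genes. IRF8 was too low to be tested, at 0.169 ± 0.171 TPM in isgCtrl and 0.215 ± 0.181 TPM in iPRMT1 (SD, n = 3 each).

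Samples of isgCtrl and iPRMT1 did not overlap for 3 genes, 2 higher and 1 lower, where 26.7% of all genes did not overlap, 9.11% higher and 17.6% lower. STAT2 was at 4.38, 4.15 and 4.03 TPM in isgCtrl and at 4.92, 4.47 and 5.15 TPM in iPRMT1, a log2 difference of 0.17 (95% confidence interval 0.02 to 0.33, limma, BH-adjusted p = 0.238). IFNGR1 was at 9.80, 8.41 and 8.27 TPM in isgCtrl and at 10.3, 10.3 and 10.9 TPM in iPRMT1, a log2 difference of 0.23 (95% confidence interval 0.05 to 0.42, limma, BH-adjusted p = 0.199). Both were higher in every iPRMT1 sample. IRF3 was lower in every iPRMT1 sample, at 109.7, 106 and 115 TPM in isgCtrl against 105, 91.1 and 88.8 TPM, a log2 difference of -0.22 (95% confidence interval -0.41 to -0.02, limma, BH-adjusted p = 0.233). BCL2L12, which overlaps it, was at a mean of 142 TPM in isgCtrl and 116 TPM in iPRMT1.

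The other 5 genes overlapped between isgCtrl and iPRMT1, and their intervals give the sizes that these samples leave possible. For IRF7 the log2 difference was 0.10 (95% confidence interval -0.10 to 0.31), with 4.30, 3.92 and 4.89 TPM in isgCtrl and 4.63, 5.08 and 4.56 TPM in iPRMT1. For IRF1 it was 0.08 (-0.19 to 0.36), with 15.1, 16.1 and 17.5 TPM in isgCtrl and 16.2, 20.2 and 15.5 TPM in iPRMT1. Neither interval reached the fold threshold of 0.48. IRF9 differed by 0.16 (-0.09 to 0.41), IRF2 by 0.07 (-0.12 to 0.27) and IFNAR1 by 0.01 (-0.22 to 0.24), and these intervals too ended below 0.48.

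**Figure D1:**
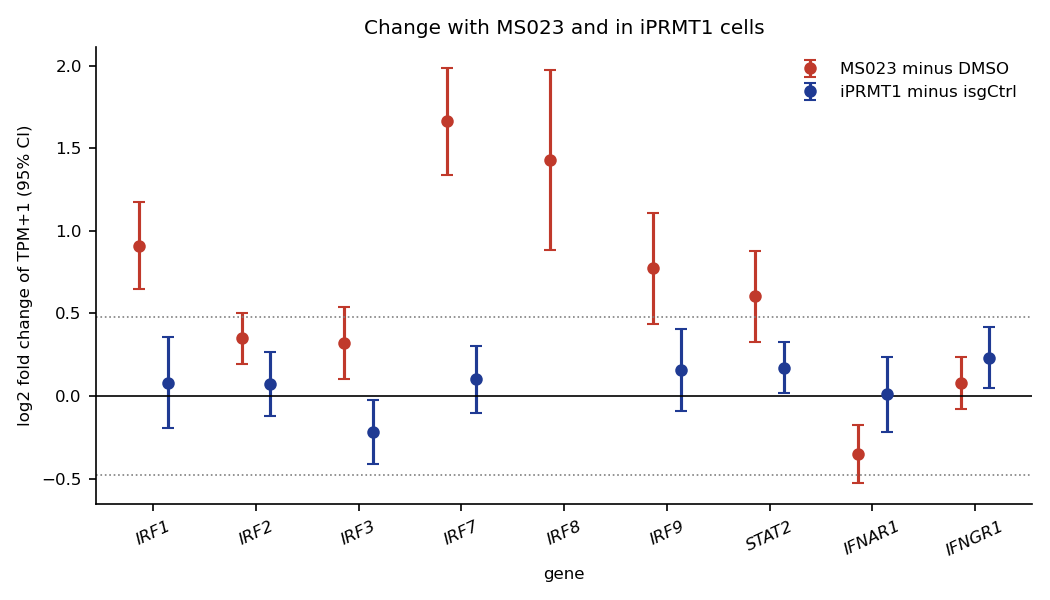
Log2 fold change of TPM+1 with its 95% confidence interval (limma) for each gene, MS023 minus DMSO in red and iPRMT1 minus isgCtrl in blue; dotted lines mark the fold threshold of 0.48, and IRF8 has no blue point because it was not tested there. The red points run from -0.35 (IFNAR1) to 1.66 (IRF7) and the blue points from -0.22 (IRF3) to 0.23 (IFNGR1).

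The effects of MS023 and of the PRMT1 guide were then compared directly, as the difference of the log2 changes in a fit of all 12 samples. It passed a BH-adjusted p of 0.05 in limma for 8 of the 9 genes, and for 35.6% of the 13256 genes tested (1903 higher and 2816 lower, and 2391 and 2343 under median-ratio scaling). IRF7 differed by 1.56 (adjusted p = 6.7e-05 in limma), IRF8 by 1.37, IRF1 by 0.83, IRF9 by 0.62, IRF3 by 0.54, STAT2 by 0.43 and IRF2 by 0.28, all higher with MS023. IRF8 entered this test only through DMSO and MS023. It was below 1 TPM in every isgCtrl and iPRMT1 sample, which keeps its guide effect on log2(TPM+1) near 0. Its difference therefore says little of the guide. IFNAR1 differed by -0.36 and IFNGR1 by -0.15 (limma, BH-adjusted p = 0.037 and 0.233). The difference of IFNAR1 did not pass under median-ratio scaling or quantile normalization. The count of 8 fell to between 4 and 7 when 1 library was left out. It was 4 without isgCtrl replicate 2 and 5 without DMSO replicate 1 or 2, MS023 replicate 2 or iPRMT1 replicate 1, and 4 when all genes above 0 were tested.

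The control groups themselves differed in these genes. IRF1 was at 34.2 to 41.4 TPM in DMSO and 15.1 to 17.5 TPM in isgCtrl, a log2 difference of -1.18 (SE 0.09, limma, BH-adjusted p = 9.9e-04). IRF8 differed by -1.19 (SE 0.22, limma, BH-adjusted p = 0.011), and both were lower in every isgCtrl sample. These 2 of the 9 were called, where 13.9% of 12661 genes were called, 7.23% higher and 6.7% lower. The counts of all genes were 915 higher and 848 lower, and 671 and 942 under median-ratio scaling. IRF8 entered this test only through DMSO (means of 1.72 TPM in DMSO and 0.169 in isgCtrl), so it could only come out lower. With all genes above 0 tested, 2 of the 9 were also called lower. Without overlap, 6 of the 9 were lower and 1, IRF3, higher in isgCtrl, where 51.7% of all genes did not overlap, 31.8% higher and 19.9% lower. The groups differ at once in vehicle, Cas9, guide and doxycycline, and by the Methods in lentiviral infection, cell sorting and puromycin selection. These cannot be told apart, and the comparison shares its samples with both comparisons above.

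Set beside the rest of their families, 4 of the 8 IRF genes listed were called higher with MS023 and none lower, all of them among the 9 genes described above. Over all genes tested, 11.6% were called higher and 19.3% lower. IRF4, the plasma cell factor on which myeloma cells depend, differed by 0.19 with MS023 (limma, BH-adjusted p = 0.211, and 0.32 with an adjusted p of 0.039 under median-ratio scaling). IRF5 differed by -0.23, under the fold threshold.

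Of the 6 STAT genes listed, 3 were called higher with MS023 and 1 lower, where 11.6% of all genes were called higher and 19.3% lower. Beside STAT2, STAT6 of the interleukin-4 pathway rose by 0.67 and STAT3 of the interleukin-6 pathway by 0.59 on the log2 scale. STAT5B fell by 0.94 on the same scale. STAT5B was at 11.0 ± 1.03 TPM in DMSO and 5.31 ± 0.811 TPM in MS023 (SD, n = 3 each). The remaining members, STAT4 and STAT5A, differed by 0.23 and -0.35 and were not called. None of the 5 STAT genes tested was called in iPRMT1 cells.

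Of the 9 receptor chains and Janus kinases listed, 1 was called higher and 1 lower with MS023 (none lower under median-ratio scaling or quantile normalization). Over all genes tested, 30.9% were called, 11.6% higher and 19.3% lower. IFNAR2, the partner of IFNAR1, was at 36.9, 36.4 and 35.7 TPM in DMSO and at 24.8, 24.9 and 25.3 TPM in MS023 (log2 fold change -0.52, SE 0.06, limma, BH-adjusted p = 8.6e-04). Its change was -0.40 under both of those scalings, short of the fold threshold. IL10RB, the chain shared by the interferon lambda and interleukin-10 receptors, was at 8.12, 6.70 and 6.64 TPM in DMSO and at 13.5, 14.3 and 15.1 TPM in MS023 (log2 fold change 0.91, limma, BH-adjusted p = 7.5e-04). In both genes the groups stood clear of each other. IFNGR2 differed by 0.34 and IFNLR1 by 0.39, both under the fold threshold. The kinases differed by 0.20 for JAK2 and 0.21 for TYK2, and JAK1 by -0.03, a sign that turned to 0.09 under median-ratio scaling, and none of these 3 passed the test with the TPM as deposited. In iPRMT1 cells no chain or kinase of the 7 tested was called, and the largest difference was that of IFNGR2, -0.50 (limma, BH-adjusted p = 0.085). With a trend in eBayes, or with all 12 samples in 1 fit, IFNGR2 was called lower (limma, BH-adjusted p = 0.037 and 0.031).

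**Figure D2:**
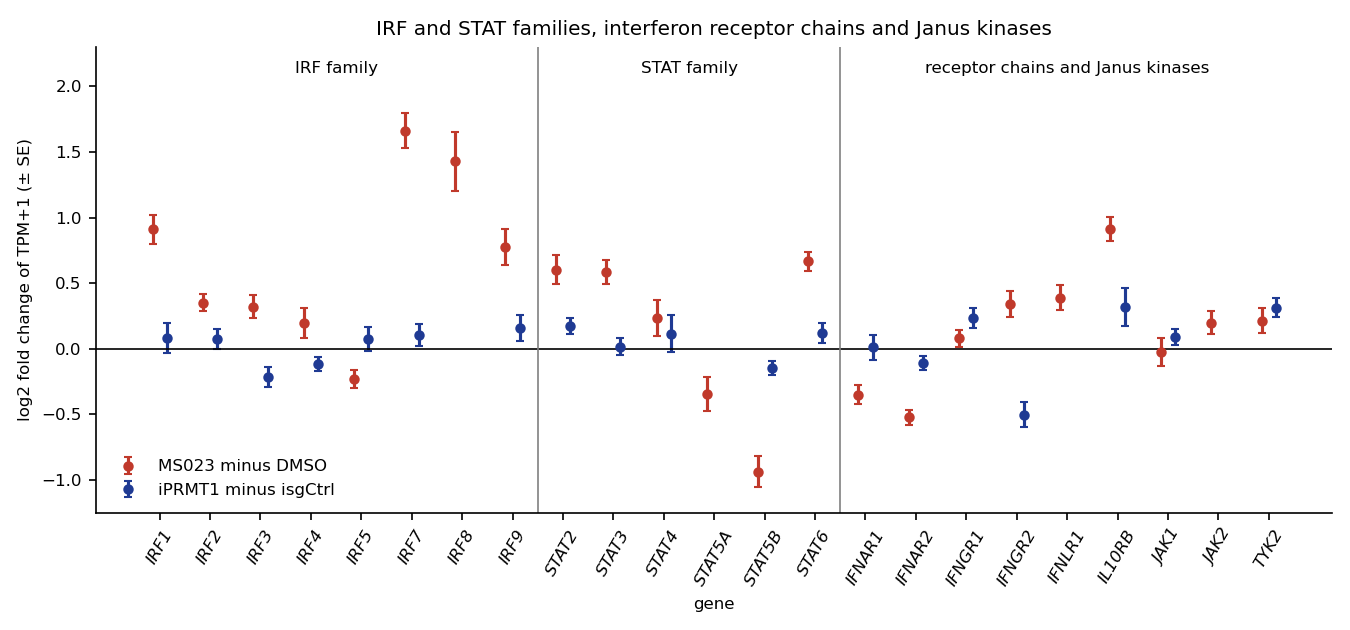
Log2 fold change of TPM+1 (points) and its standard error (bars) for the IRF family, the STAT family, and the interferon receptor chains and Janus kinases, MS023 minus DMSO in red and iPRMT1 minus isgCtrl in blue; genes too low to be tested have no point. STAT5B is lowest with MS023, at -0.94, and IRF7 is highest, at 1.66.

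Regulators around the 9 genes were called in both directions with MS023, where 11.6% of all genes were called higher and 19.3% lower. Of the 3 IRF2-binding corepressors, IRF2BP1 and IRF2BPL fell, by 0.53 and 0.50 on the log2 scale, and IRF2BP2 was not called. Under median-ratio scaling these changes were -0.41 and -0.38, and neither was called there or under quantile normalization, nor was IRF2BPL without DMSO replicate 3 or MS023 replicate 3 (-0.46 and -0.47). Among 12 adaptors and kinases that activate IRF3 and IRF7, 2 were called higher (16.7%) and 1 lower, against 11.6% and 19.3% of all genes. Under median-ratio scaling or quantile normalization 3 of the 12 were called higher and none lower. STING1, the adaptor of cytosolic DNA sensing, rose from 9.25, 8.86 and 10.1 TPM to 20.1, 18.6 and 22.4 TPM (log2 fold change 1.03, limma, BH-adjusted p = 4.4e-04). TICAM1, the adaptor of Toll-like receptor 3, rose by 0.48, just over the threshold, and the kinase gene IRAK4 fell by 0.57. TICAM1 was not called without DMSO replicate 2 or MS023 replicate 2 (0.45 and 0.46), nor IRAK4 under median-ratio scaling or quantile normalization (-0.46 and -0.43).

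Of 13 brakes on interferon signalling, 3 were called higher and 4 lower with MS023. SOCS3, which blocks Janus kinases, was at 2.92, 3.06 and 3.48 TPM in DMSO and at 14.7, 14.8 and 14.7 TPM in MS023 (log2 fold change 1.92, limma, BH-adjusted p = 5.5e-05). USP18, which binds IFNAR2 and removes ISG15 from proteins, rose by 1.17. USP18 entered the test only through MS023 (means of 0.581 TPM in DMSO and 2.53 in MS023), so it could only come out higher. With all genes above 0 tested, 3 of the 13 brakes were also called higher and 4 lower. PIAS2 and SOCS2 fell by 0.75 each on the log2 scale. Of 8 DNA-binding partners of IRF8, IKZF3 rose by 0.73, and SPIB and IKZF1 fell by 0.69 and 0.60. Both lower calls were lost when all genes above 0 were tested (limma, BH-adjusted p = 0.059 and 0.055) and without DMSO replicate 1 or MS023 replicate 2, SPIB also without DMSO replicate 2 or MS023 replicate 3, and IKZF1 without DMSO replicate 3 or MS023 replicate 1 and under quantile normalization. In iPRMT1 cells no gene of these 4 lists was called.

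Transcripts of the ligands were few. Of 21 interferon genes listed, 18 were at 0 in all 12 samples, among them IFNB1, and IFNA2 was at 0 in 11. IFNG, interferon gamma, was at 12.8, 15.8 and 11.8 TPM in DMSO and at 5.60, 5.40 and 6.02 TPM in MS023, a fall of the log2 value by 1.11 (limma, BH-adjusted p = 7.1e-04). In isgCtrl it was at 6.74, 7.01 and 8.11 TPM and in iPRMT1 at 10.6, 7.59 and 9.85 TPM, which overlapped. IFNL1, an interferon lambda, was at 0.521, 0.830 and 0.609 TPM in DMSO and at 1.34, 1.03 and 1.61 TPM in MS023 (log2 fold change 0.49, limma, BH-adjusted p = 0.017). That call was lost without DMSO replicate 1 or 3 or MS023 replicate 1 or 3 (0.40 to 0.48). IFNL1 entered the test only through MS023, so it could only come out higher.

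Genes that these factors are known to induce were called higher with MS023 more often than lower in both lists examined, counts that are given as a description beside the 11.6% of all genes called higher and 19.3% lower. Of 44 genes induced by type I interferon, 34 were tested, and 20 were called higher and 1 lower, with a median log2 fold change of 0.93. Genes that entered the test only through MS023 could only come out higher, such as OASL (means of 0.152 TPM in DMSO and 3.31 in MS023). With all genes above 0 tested, the median of the 44 was 0.63, with 20 called higher and 1 lower. ISG20 rose from 21.0, 23.1 and 20.5 TPM to 80.7, 88.2 and 85.6 TPM, a log2 fold change of 1.93. OASL, IFI6 and MX1 rose by 1.90, 1.69 and 1.63. Of 26 genes induced by interferon gamma through IRF1, 23 were tested, and 8 were called higher and none lower, with a median of 0.44. CXCL10 rose from 21.3, 20.5 and 20.2 TPM to 192, 186 and 196 TPM. Its log2 fold change was 3.15, that of CXCL9 3.22, that of APOL3 2.43 and that of APOL1 1.81. Under median-ratio scaling 12 of the gamma list were called higher, and 7 with all genes above 0 tested, where the median was 0.37. With 1 library left out, 7 to 8 of the gamma list were called higher and 0 to 2 lower.

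In iPRMT1 cells, where 0.415% of all genes were called higher, this was so for 1 of 23 type I target genes tested, UBE2L6, the conjugating enzyme for ISG15, with 10.6, 12.6 and 11.0 TPM in isgCtrl and 17.9, 18.5 and 17.8 TPM in iPRMT1 (log2 fold change 0.62, limma, BH-adjusted p = 0.034). The call was lost without any 1 of the 6 libraries. None of the 17 gamma list genes tested was called, though APOL1 was called higher under median-ratio scaling, quantile normalization, a trend in eBayes and 1 fit of all samples (0.61 to 0.65). The medians of the lists were 0.09 and 0.10, against -0.04 over all genes. Against DMSO, isgCtrl cells had 13 of 28 type I target genes called lower and none higher. Of the gamma list 10 of 22 were called lower and 1 higher, where 6.7% of all genes were called lower and 7.23% higher. Genes that entered this test only through DMSO could only come out lower, such as ISG20 (means of 21.5 TPM in DMSO and 0.733 in isgCtrl). With all genes above 0 tested, 13 of 44 of the type I list were called lower and none higher. Of the gamma list 10 of 26 were then called lower and 1 higher, where 815 of 27751 genes were called lower and 788 higher. ISG20 was below 1 TPM in the 3 isgCtrl samples, at 0.456, 0.854 and 0.888.

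The ISRE core printed above for these targets was common in both lists. It was in a promoter window of 26 of the 35 type I target genes with a window and of 14 of the 17 of the gamma list. Over all tested genes with a promoter window, 73 of 382 with an ISRE core were called higher with MS023 (19.1%) and 46 lower, against 923 (10.2%) and 1786 (19.7%) of 9048 without it. With a GAS, 89 of 791 were called higher (11.3%), against 907 of 8639 without it (10.5%). The listed targets are among the genes with the core, and no test was made.

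Genes with the pattern most like that of IRF7, the one of the 9 with the largest change with MS023, were found by Pearson's r over the 12 samples among 11932 genes. They were DUSP5 (r = 0.992), SEC61A1 (0.991), KIAA0930 (0.990), INSIG1 (0.990) and SQSTM1 (0.990). For IFNGR1, with the largest difference in iPRMT1 cells, they were FAM89A (0.932), HDGFL3 (0.901), ASPH (0.896), BUD31 (0.891) and S100A8 (0.889). The samples share 4 groups and their libraries, so r follows the group levels.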

How the data were processed

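RNA of 12 JJN3 samples was sequenced. By the Methods and the submitters' processing notes, the authors checked reads with FastQC, trimmed them with Trimmomatic, aligned them with STAR to hg38 and quantified genes with Salmon against GENCODE V35 (k-mer 31), with versions not given in the sources used here. The deposited values are log2(TPM+1) per gene, on a log2 scale, with replicates kept apart. TPM was recovered as 2 to the power of the value minus 1. It carries no read depth, so no count model was used.

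Groups came from the samples' titles. Each comparison was fitted with limma 3.58.1 in R 4.3.3 on its own 6 samples (eBayes without trend), with Benjamini-Hochberg adjustment over all genes tested. A gene entered a test when 1 group or both averaged above 1 in log2(TPM+1). The difference of effects used all 12 samples and any of the 4 groups. Exact permutation tests were 2-sided, and ± is the SD of 3 replicates. Nothing in the labels says whether replicates came from separate cultures, so p-values measure the spread between these samples.

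Alternatives were all genes above 0, median-ratio scaling, another pseudocount (0.1), a replicate block, quantile normalization, a trend in eBayes, 1 fit of all 12 samples, and leaving out each replicate. The fits were first tested on simulated data. Positions came from GENCODE v44 and promoters from RefSeq. The genes, the lists and their members were chosen with earlier results of these data known. Named outside the 9 genes are the IRF and STAT family genes listed, receptor chains and Janus kinases, at most the 4 genes with the largest called change per list and comparison, and the 5 genes with the highest r to IRF7 and IFNGR1. IFNB1, IRF2BP2, BCL2L12 and IRF1-AS1 were named after their values were seen. Some genes of these families are not reported here.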

Additional observations from a re-analysis of the deposited data

Results flagged for a closer look

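The change with MS023 and the change with the PRMT1 guide differed, by the test of the difference itself (limma on all 12 samples, Benjamini-Hochberg adjusted p under 0.05), for the results below, each given as the MS023 effect minus the iPRMT1 effect on the log2 scale. Among the 9 genes these were IRF7 (1.56), IRF8 (1.37), IRF1 (0.83), IRF9 (0.62), IRF3 (0.54), STAT2 (0.43), IRF2 (0.28) and IFNAR1 (-0.36). The single effects of IRF3 had opposite signs (0.32 and -0.22), and the guide effect did not pass the test (limma, BH-adjusted p = 0.233). Those of IFNAR1 were -0.35 and 0.01, where the guide effect had no stable sign (-0.051 to 0.089 with 1 library left out). The differences of IRF2, IRF9, STAT2 and IFNAR1 each missed the threshold when at least 1 library was left out. That of IFNAR1 also missed it under median-ratio scaling and quantile normalization.

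In their families, the difference was -0.79 for STAT5B, 0.57 for STAT3 and 0.55 for STAT6. Among receptor chains it was -0.42 for IFNAR2, 0.60 for IL10RB, 0.49 for IFNLR1 and 0.84 for IFNGR2. IFNGR2 was 0.34 higher with MS023 and 0.50 lower in iPRMT1 cells, each against its own control. These controls were unequal, with IFNGR2 means of 9.98 TPM in DMSO and 17.9 in isgCtrl. The means in MS023 and iPRMT1 were close, at 12.9 and 12.3 TPM.

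Among regulators it was -0.39 for IRF2BP1, -0.47 for IRF2BPL, 0.78 for STING1, 0.47 for TICAM1, 1.69 for SOCS3, 1.09 for USP18, -0.63 for PIAS2, -1.15 for SOCS2, 0.82 for IKZF3 and -0.76 for SPIB. TICAM1 too had unequal controls, with means of 10.2 TPM in DMSO, 14.6 in MS023, 14.8 in isgCtrl and 14.9 in iPRMT1. IFNG, the ligand of IFNGR1, differed by -1.42.

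Among target genes it was 1.44 for ISG20, 1.70 for OASL, 1.12 for IFI6, 1.62 for MX1 and 0.38 for UBE2L6 of the type I list. Of the gamma list, CXCL9 differed by 3.24, CXCL10 by 3.21, APOL3 by 2.12 and APOL1 by 1.20. IRF8, IFNLR1, USP18, OASL and MX1 were below 1 TPM in every isgCtrl and iPRMT1 sample. On log2(TPM+1) their guide effects were kept small, which limits what these differences say. ISG20 had means of 0.733 TPM in isgCtrl and 1.43 TPM in iPRMT1, where the added 1 also makes changes smaller. Groups of 3 samples were too small for a search for single outlying samples.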

How the results depend on the processing

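With MS023, 5 of the 9 genes were called in every alternative run, and in iPRMT1 cells 0 of 8, or 0 of 9 with all genes above 0. Against DMSO, 2 to 3 were called in isgCtrl. For the difference of effects, 8 became 4 with all genes above 0, where more genes are tested, and 4 to 7 with 1 library left out. Among values that changed sign, JAK1 with MS023 was 0.094 under median-ratio scaling, 0.12 under quantile normalization and -0.12 to 0.058 with 1 library left out. In iPRMT1 cells, with 1 library left out, IRF1 ranged from -0.029 to 0.15, IFNAR1 from -0.051 to 0.089 and STAT3 from -0.028 to 0.061. So did the log2 ratios of IRF1 to IRF2 in iPRMT1 cells (-0.15 to 0.14) and of STAT2 to IRF9 with MS023 (-0.31 to 0.0067) and in iPRMT1 cells (-0.054 to 0.094). The causes were not tested. Samples that share a replicate number were not paired (r of their deviations 0.02 to 0.10 for MS023 and -0.14 to 0.07 for iPRMT1). With the replicate block, 5 of the 9 genes were called with MS023 and 0 in iPRMT1 cells, where 0 of all genes were called against 96 without it, so that UBE2L6 was lost (limma with Benjamini-Hochberg adjustment, adjusted p = 0.168). 0 genes passed there although 2054 had an unadjusted p under 0.05. TPM without depth limit what can be said of IRF8 below 1 TPM.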
